A study of Mus musculus with 272 samples.

Results

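The polysome gradients of mouse germinal vesicle (GV) oocytes make up 30 of the 272 libraries of a series that follows translation from the oocyte to the blastocyst. They were taken from the deposited CPM table by column name, as fractions 1 to 10 of the gradients lettered A, B and C. Each gradient received the cleared lysate of about 100 GV oocytes, broken with beads in a buffer containing cycloheximide, which freezes ribosomes on their transcripts. The lysate was spun through a linear sucrose gradient that also held cycloheximide, 10 equal fractions were collected, and polyadenylated RNA of each fraction was amplified and sequenced. Metaphase II (MII) oocytes, with another 30 libraries prepared in the same way, were the comparison stage. The labels give no strain, age or hormone treatment for either stage, and do not say whether the 3 gradients came from separate collections of oocytes, so every p-value below measures the spread between these gradients only.

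A GV oocyte is arrested in the prophase of meiosis with its nucleus intact. A fully grown oocyte makes little new RNA and relies on stored messengers, part of which are translated during growth and arrest, while others are held with short poly(A) tails until meiosis resumes. In a sucrose gradient free messenger particles sediment least, ribosomal subunits and single ribosomes further, and transcripts loaded with several ribosomes furthest. Cyclin B1, the kinase Mos and tissue plasminogen activator (Plat) are textbook examples of stored transcripts whose translation rises at meiotic resumption.

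The labels number the fractions without saying which hold subunits, single ribosomes or polysomes. Fractions 6 to 10 are called heavy here and fractions 2 to 5 light, as names only. The values are reads of a gene per 1 M reads of its library (CPM), so each describes the share of a gene in the RNA of a fraction and not the amount of RNA there. Fraction 1 held 0.0102, 0.0231 and 7.66 M reads in gradients A, B and C, and was left out of all tests. Fractions 2 to 10 held 14.3 to 40.5 M reads. The genes at or above 1 CPM were 11135 ± 323 in fraction 5 (SD, n = 3) and fell to 8568 ± 1057 in fraction 10. The correlation across genes between gradients for the same fraction was also lower at the bottom of the gradient, at 0.688 to 0.731 in fraction 10. All 10 oocyte markers were tested, and 6 of them were higher in the heavy fractions, beside 19.2% of all genes tested. The summed levels of the 10 were 14838 to 20331 CPM over the light and 19846 to 50312 CPM over the heavy fractions. Of 16 granulosa and cumulus markers, 8 were in the table and their summed level was 13.6 to 71.3 CPM in light and 23.6 to 407 CPM in heavy fractions. Of 5 tested, Inha, the inhibin alpha subunit, and the steroid enzyme Hsd17b1 (2.24) were heavy, while the median over fractions 2 to 10 was 6.03 CPM for Cyp19a1, which makes estrogen, and 0 for Star. Inha had the highest single value of these markers, 361 CPM. It rose from 6.27, 9.72 and 14.4 CPM on the light side of gradients A, B and C to 23.0, 64.4 and 189 CPM on the heavy side (log2 difference 2.65, SE 0.35, adjusted p = 0.000823). The part of these cells, and of the lower number of genes detected at the bottom, in the results below was not tested. Of 8 markers of theca, stroma and blood, 1 was in the table and none reached the level needed for a test.

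The main comparison set the mean CPM of the heavy fractions against that of the light fractions within each gradient. Of 11690 genes tested, 3132 were called (26.8% at an adjusted p under 0.05, limma with the gradient as a block). Of these, 2250 (19.2%) were higher in the heavy and 882 (7.54%) in the light fractions, so that 71.8% of the calls were heavy. The median difference over all genes tested was 0.19 on the log2(CPM + 1) scale, in which all differences below are given. Other scalings moved that median to -0.07 with quantile normalisation, 0.03 with edgeR and -0.04 with DESeq2, and the heavy share of the calls to 50.4%, 57.5% and 50.5%. Without gradient C the calls fell to 986.

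The largest heavy differences belonged to genes with long coding sequences, from 3054 bases in Stk31 to 20622 bases in Syne2, beside a median of 1404 over all genes tested. Syne2 encodes nesprin-2, a giant protein of the nuclear envelope, and its level was 184, 335 and 202 CPM in the heavy fractions of gradients A, B and C against 4.75, 5.25 and 11.7 CPM in the light ones. The sides did not overlap, and the difference of 4.92 (SE 0.32, adjusted p = 0.000139) was the highest of all genes named by size. Kmt2c, a histone H3 lysine methyltransferase, had 39.5, 100 and 98.4 CPM on the heavy and 3.22, 2.71 and 5.36 CPM on the light side (4.00, SE 0.35, adjusted p = 0.000198). The chromatin remodeller Atrx rose by 3.56 and the kinetochore protein Cenpf by 3.45. Cenpf was at 231, 219 and 203 CPM in heavy and at 27.8, 11.5 and 21.2 CPM in light fractions, with no overlap. The other members of the leading 10 were 4932438A13Rik (3.69), the ubiquitin ligases Mycbp2 (3.68) and Herc2 (3.55), Ice1 (3.38), the nonsense-mediated decay kinase Smg1 (3.38) and the germ cell protein Stk31 (3.36).

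At the light end, Aldoa, which encodes a glycolytic enzyme, had the second lowest difference. It was at 3025, 1584 and 3557 CPM in the light and 594, 441 and 432 CPM in the heavy fractions (-2.41, SE 0.20, adjusted p = 0.000188), and the sides were far apart in each gradient. Its level was highest in fraction 2, at 8024, 4448 and 10779 CPM, and below 1000 CPM from fraction 4 downward in all gradients. Eif3g, a subunit of the initiation factor eIF3, had 402, 273 and 449 CPM in light and 109, 72.8 and 76.2 CPM in heavy fractions (-2.10, SE 0.18, adjusted p = 0.000198). Babam1, a subunit of the BRCA1-A and BRISC complexes, had the lowest value (-3.18, SE 0.43), with a light level of 137 CPM in gradient C against 39.2 and 18.9 CPM in A and B. The remaining genes of the light 10 lay between -2.23 and -2.06: Spout1, Zfyve19, the splicing regulator Hnrnpl, Nmnat1, which makes nuclear NAD, Ccdc124, Ccdc28b and Tmem214.

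**Figure D1:**
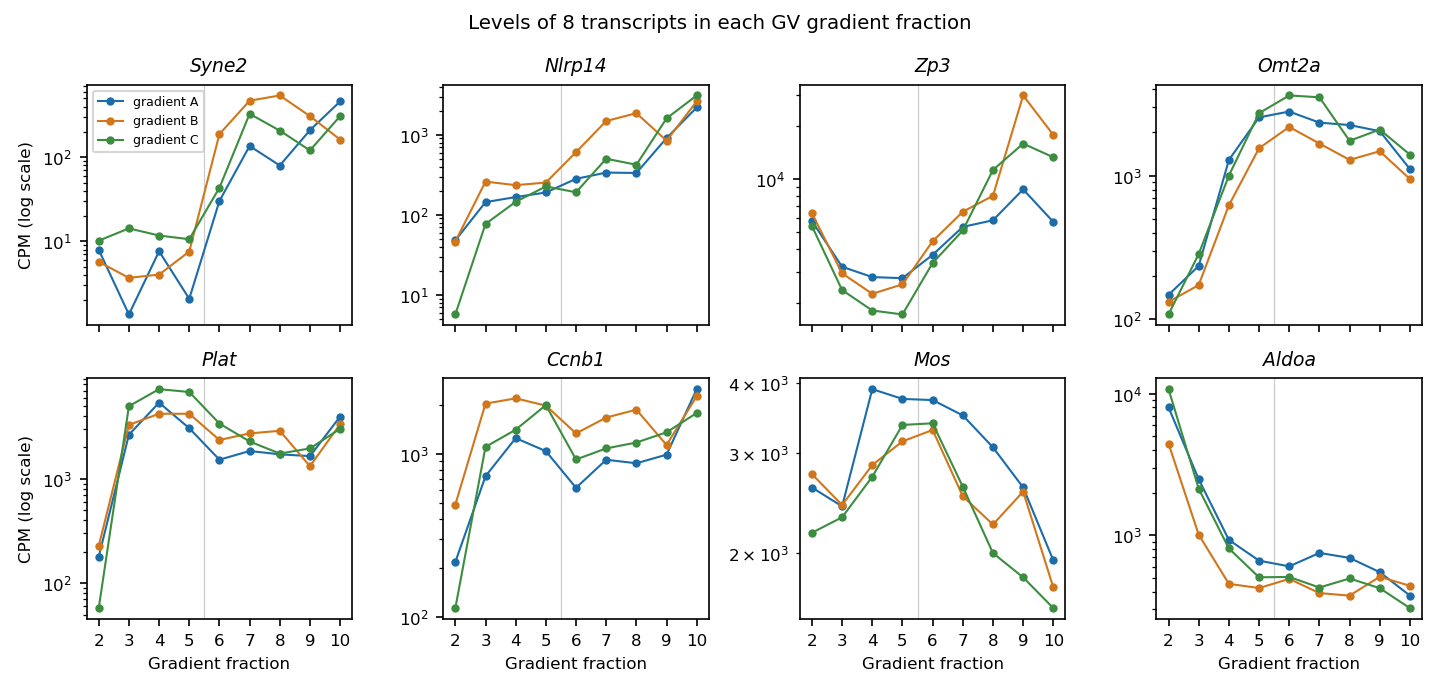
CPM on a log axis (y) of 8 transcripts in fractions 2 to 10 (x), 1 line per GV gradient, with a vertical line between the light and heavy sides. Syne2 was high from fraction 7 to 10, Nlrp14 climbed to its maximum in fraction 10, Aldoa fell after fraction 2, and Omt2a was highest in fraction 6 in all 3 gradients. Plat and Mos had their maxima between the ends of the gradient. Ccnb1 had a first maximum there and its highest level in fraction 10 in gradients A and B.

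The position of a transcript was also followed fraction by fraction. An F test over fractions 2 to 10 (27 libraries, limma with the gradient as a block) called 5002 of 13113 genes (38.1%). Of these, 21.1% had their highest mean level in fraction 2 and 29.7% in fraction 10. Among all 13113 genes, called or not, 2190 were highest in fraction 2 and 3681 in fraction 10. The share of called genes in fraction 10 was thus close to that of all genes. Among the called genes with a mean CPM of at least 10, 861 were highest in fraction 2, and for 624 of them this held in each gradient. Fraction 10 held the maximum of 1363 genes, of which 399 in each gradient, while fraction 7 held that of 149 and of none in each gradient. The called genes that were highest in fraction 2 had a median coding length of 717 bases, against 1518 in fraction 3, 1296 in fraction 6, 2025 in fraction 8, 942 in fraction 9 and 1659 in fraction 10, so that length did not follow the order of the fractions. Without gradient B 2595 genes were called, and without gradient C 2244.

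The 5 genes with the largest F were highest in fraction 5 or 6 by the mean of the gradients. Omt2a, a gene named for its expression during oocyte maturation, was at 129 ± 20.1 CPM in fraction 2, 2863 ± 719 CPM in fraction 6 and 1153 ± 230 CPM in fraction 10 (SD, n = 3, F = 123). Its close relative Omt2b had the same course (F = 111), but reads of these near-identical copies may be shared between them, so their values are not independent. Ezhip, an inhibitor of the Polycomb complex PRC2, went from 1429 ± 104 CPM in fraction 2 to 19984 ± 7712 in fraction 6 and 3968 ± 942 in fraction 10. C86187, which has no established function, was at 199 ± 41.5 CPM in fraction 2 and 8158 ± 1937 in fraction 5, and the tetraspanin Tspan14 (F = 84.7) was also highest in fraction 5. The gene with the largest F among those highest in fraction 2 was the uridine phosphorylase Upp1, with 3806, 1891 and 4252 CPM there and 530, 282 and 404 CPM in fraction 10. The corresponding genes were Zfp574 for fraction 3, Plat for 4, Syne2 for 7, the transporter Slc45a3 for 8, the mitochondrial leucyl-tRNA synthetase Lars2 for 9 and Bmp15 for 10. Lars2 shares sequence with mitochondrial ribosomal RNA, so its count is uncertain.

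**Figure D2:**
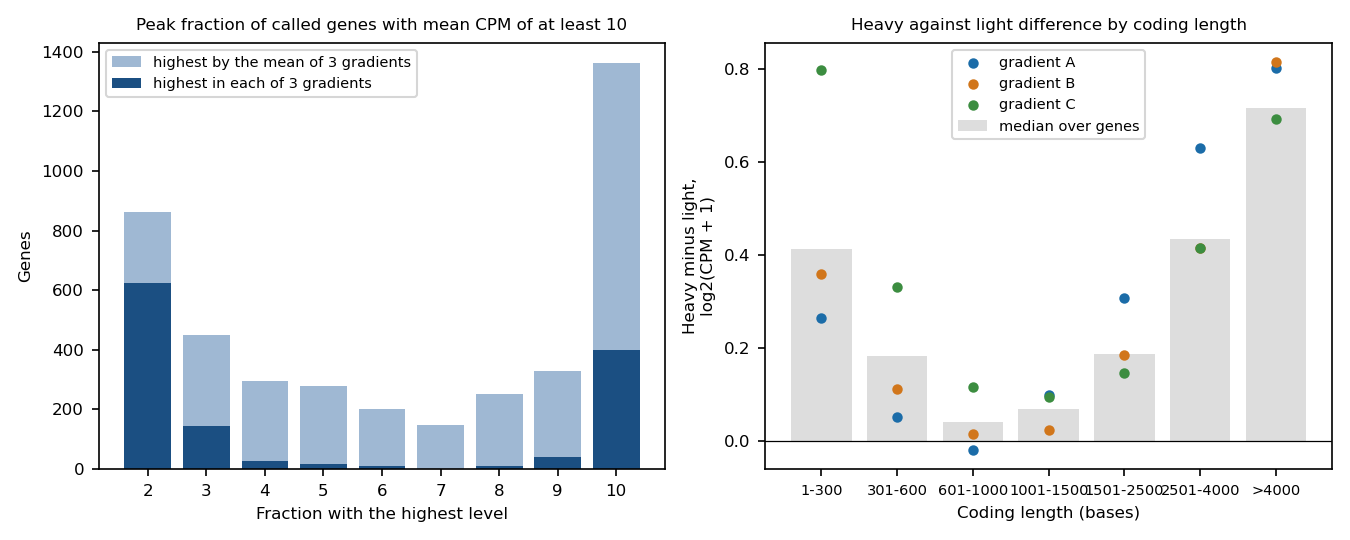
Left, number of called genes (y) by the fraction in which they were highest (x), by the mean of 3 gradients (light bars) and in each gradient (dark bars): 861 genes in fraction 2 and 1363 in fraction 10 form the ends of a U shape. Right, median heavy minus light difference on the log2(CPM + 1) scale (y) by coding length class (x), over genes (bars) and in each gradient (points). The bars are lowest at 601 to 1000 bases and highest above 4000, while gradient C is lowest at 1001 to 1500 bases and highest up to 300.

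Oocyte-specific proteins of the subcortical maternal complex and the related Nlrp family led the gene groups. The complex lies under the egg's surface and is needed for the first cleavages of the embryo. Of 16 members tested, 12 were higher in the heavy fractions and 1 in the light ones, beside 19.2% and 7.54% of all genes tested. The median difference was 1.75 beside 0.19 for all genes, and the sides did not overlap for 13 members, beside 35.9% of all genes. Nlrp14 had 812, 1485 and 1165 CPM in heavy and 137, 199 and 114 CPM in light fractions (2.93, SE 0.17, adjusted p = 0.000114). Nlrp5, known as Mater and a core member of the complex, followed with 183, 395 and 237 against 35.0, 41.1 and 26.4 CPM (2.90, SE 0.21). In both genes each heavy value was above each light one. Nlrp14 rose steeply toward the bottom of all gradients, from 48.0, 46.4 and 5.69 CPM in fraction 2 to 2198, 2621 and 3106 CPM in fraction 10. Nlrp4b (2.30), Nlrp9a (1.89) and Khdc3 (1.09), which encodes the complex member Filia, were called heavy as well. Among the other core members, Ooep (0.43, adjusted p = 0.0505), Tle6 (0.12) and Padi6 (-0.08) did not pass the test, and Zbed3 was higher in the light fractions (-0.77, SE 0.10, adjusted p = 0.000834). Zbed3 had 20560, 15041 and 16104 CPM in light and 12261, 9096 and 9018 CPM in heavy fractions. The Nlrp genes are close paralogs, and how reads were split among them is not given in the sources used here.

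Zona pellucida proteins, oocyte growth factors and egg surface proteins are secreted or inserted in the membrane. Of 12 such genes, 7 were called heavy and none light, beside 19.2% and 7.54% of all genes tested, with a median of 0.57. Zp3, a structural protein of the zona, had 5883, 13304 and 9780 CPM in the heavy and 3631, 3531 and 2827 CPM in the light fractions (1.47, SE 0.20, adjusted p = 0.00101). The sides did not overlap, and gradient B had the highest heavy value. Zp3 was lowest in the middle of the light side and highest in fraction 9, where it reached 8746, 29715 and 15870 CPM. The growth factor Bmp15 had 1060, 1582 and 1378 CPM against 511, 754 and 613 CPM (1.10, SE 0.12, adjusted p = 0.000443). The receptor Kit (1.20), Zp2 (1.14) and the protease Astl (1.01), which cleaves the zona protein ZP2 after fertilisation, were also called heavy. For Gdf9, the partner of Bmp15, the values were 8128, 8362 and 7674 CPM in heavy and 7009, 7344 and 7420 CPM in light fractions (0.15, adjusted p = 0.338). Zp1 (0.13) and the sperm receptor Izumo1r (-0.14) did not pass the test either. The translocon and signal peptidase genes, through which secreted proteins enter the endoplasmic reticulum, had 8 heavy and no light calls among 23, beside the same shares of all genes, with Ssr3 (1.63) and the signal recognition particle genes Srp72 (1.37) and Srp19 (1.18) among them.

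Transcripts known to be activated during maturation had, as a group, a low median level in fraction 2; Mos, at 2609, 2756 and 2171 CPM there, was an exception. Of 16 tested, 9 were heavy and 1 was light, beside 19.2% and 7.54% of all genes tested. The median of 0.59 depended on the light side: it was 0.23 with fractions 3 to 5, 1.96 with fractions 2 and 3, and 1.20 when logs were averaged over a side. Relative to each gene's own mean, the group's median stood at -2.30 in fraction 2, 0.52 in fraction 5 and 0.85 in fraction 10 (log2 scale). Of its 15 members called over the fractions, none was highest in fraction 2, beside 21.1% of all genes called. In fraction 10, 7 were highest, beside 29.7% of all genes called. Fractions 4 or 5, which held the maxima of 353 and 342 of all 5002 genes called, held those of 6 members. The deadenylase gene Cnot6l had the largest difference, with 82.3, 116 and 81.4 CPM in heavy and 21.7, 20.9 and 20.4 CPM in light fractions (2.08, SE 0.23, adjusted p = 0.00039). The deadenylase Cnot7 (1.61), the spindle assembly factor Tpx2 (1.61), the germ cell RNA-binding protein Dazl (1.00), the checkpoint kinase Bub1b (0.91), Btg4, an adaptor of the deadenylase complex (0.59), and the decapping subunit Dcp1a (0.59) were called heavy too, together with Hprt (1.70) and Il7 (1.61). The decapping enzyme Dcp2 (0.38), the origin recognition subunit Orc6 (0.24), the replication licensing factor Cdc6 (-0.07) and Tex19.1 (-0.41) did not pass the test.

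The classical stored transcripts were not among the heavy calls. Ccnb1 had 1179, 1652 and 1262 CPM in heavy and 809, 1671 and 1153 CPM in light fractions, and these ranges overlapped (0.22, SE 0.14, 95% interval -0.09 to 0.53, adjusted p = 0.279). It was scarce in fraction 2 (217, 488 and 113 CPM), had a first maximum in fractions 4 or 5, was lower in fraction 6 (619, 1334 and 923 CPM) and highest in fraction 10 in gradients A and B. Mos had 2969, 2473 and 2282 against 3166, 2798 and 2644 CPM, again with overlap (-0.16, SE 0.11, 95% interval -0.41 to 0.09, adjusted p = 0.324). Its highest levels were in fractions 4 to 6, and fraction 10 held only 1939, 1738 and 1597 CPM. Plat was higher on the light side, at 2806, 2974 and 4750 against 2134, 2521 and 2473 CPM (-0.52, SE 0.15, adjusted p = 0.0245). Plat was highest in fraction 4 (5355, 4195 and 7216 CPM) and high again in fraction 10 (3941, 3332 and 3011 CPM) in each gradient, with lower values in fraction 9 (1647, 1319 and 1953 CPM). Its direction turned to 0.30 when logs were averaged over a side and to 0.37 with fractions 2 and 3 as the light side, in which fraction 2 had only 179, 227 and 57.7 CPM.

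**Figure D3:**
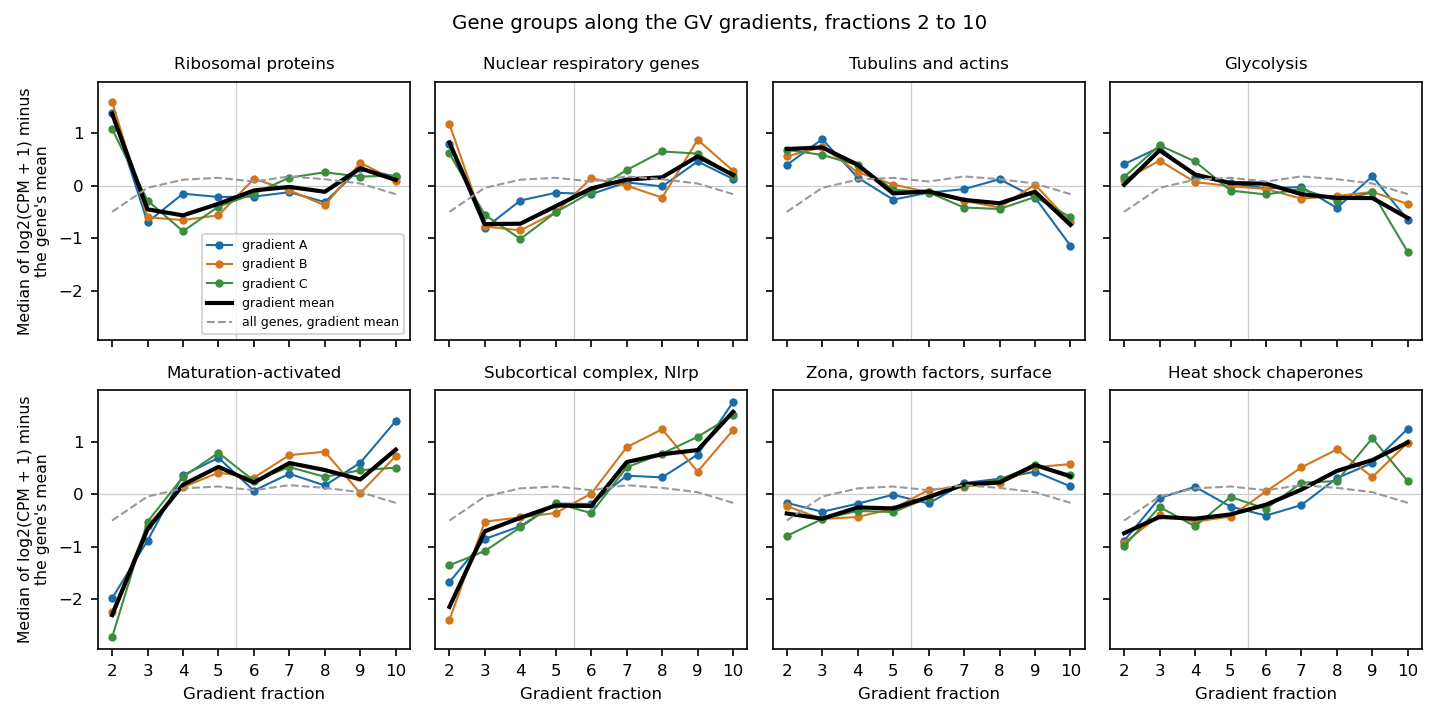
Median over the genes of a group of log2(CPM + 1) minus the gene's own mean (y) in fractions 2 to 10 (x), for each gradient (coloured), their mean (black) and all genes (dashed). Ribosomal proteins and nuclear respiratory genes spiked in fraction 2, at 1.37 and 0.82, where the maturation-activated group and the subcortical and Nlrp group lay at -2.30 and -2.15.

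Genes of meiotic control and of messenger storage were called on both sides. Among 26 genes of meiotic arrest and resumption, 7 were heavy and 2 were light, which is near the 19.2% and 7.54% of all genes tested. The spindle checkpoint kinase Bub1 had 37.2, 101 and 68.6 CPM in heavy and 12.3, 14.0 and 8.47 CPM in light fractions (2.39, SE 0.32). The inhibitors of the anaphase-promoting complex Fbxo43 (1.52) and Fbxo5 (1.11) and the receptor Gpr3 (0.84), which maintains arrest, were heavy, while Plk1 (-0.59) and Cdc20 (-0.42) were light. Of 18 genes of messenger storage and repression, 6 were heavy, led by the helicase Ddx6 (1.96), the deadenylase scaffold Cnot1 (1.79), Eif4enif1 (1.18) and Igf2bp3 (1.14). The 3 light ones were Zar1l (-1.64), the Y-box protein Ybx2 (-0.90) and the oocyte cap-binding protein Eif4e1b (-0.85). Zar1l was clearly separated, at 394, 383 and 487 CPM in light and 155, 122 and 125 CPM in heavy fractions. Among 10 oocyte transcription factors, Taf4b (1.43), Obox1 (1.03), Obox5 (1.00) and Obox2 (0.77) were heavy and Nobox, a regulator of follicle formation, was light (-0.75). The Obox genes have many near-identical copies, so their counts are uncertain.

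Cytosolic ribosomal protein genes were concentrated in fraction 2. Their transcripts often begin with a run of pyrimidines, the terminal oligopyrimidine tract, through which their translation is regulated together. The reference sequence around an annotated start of 4 members is given below to show the pyrimidine runs near it (RefSeq, GRCm38.p6, 5′ to 3′). It goes from 15 bases before the start to 15 after it, with the longest run of C or T in capitals. For any gene with several annotated starts, the window with the longest run was taken. They are the 4 genes with the highest mean CPM among those called light whose run has at least 7 bases. Genes of a single chromosome were left out of this choice.
Rpl19 (chr11:98026909-98026938, plus strand): tgggCTCTCCCCTTCgcagataatgggcgg
Rpl18 (chr7:45718056-45718085, plus strand): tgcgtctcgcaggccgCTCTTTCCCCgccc
Rpl28 (chr7:4792950-4792979, plus strand): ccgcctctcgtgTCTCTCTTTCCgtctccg
Rpl15 (chr14:18270972-18271001, minus strand): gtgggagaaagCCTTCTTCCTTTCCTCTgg
The run ends just before the annotated start in Rpl19, spans it in Rpl28 and Rpl15 and begins just after it in Rpl18, so these windows do not show with which base the oocyte transcripts began. A run of at least 7 bases made of C and T on the transcribed strand was in 32 of 58 ribosomal protein windows (55.17%), beside 21.27% of all 27025 windows of the same length and 21.72% of those of genes tested. The median difference was -0.29 for the 32 genes with such a run and 0.16 for 25 genes without, as a description of the letters in these windows.

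Of 78 ribosomal protein genes tested, 20 were light and 6 heavy, beside 7.54% and 19.2% of all genes. Their median was -0.25, and 44 had sides that did not overlap, beside 35.9% of all genes. The gradient medians were -0.42, -0.29 and 0.0055 in A, B and C, and the median was -0.01 when logs were averaged over a side. Of the 64 that were called over the fractions, 55 were highest in fraction 2 (85.9%), beside 21.1% of all genes called, and 6 in fraction 9. The group's median was 1.37 above the genes' own mean in fraction 2, fell to -0.57 in fraction 4 and came back to 0.33 in fraction 9. The direction of the group rests on fraction 2: with fractions 3 to 5 as the light side its median turned to 0.53. Rpl19 had 463, 315 and 449 CPM in light and 135, 102 and 108 CPM in heavy fractions (-1.81, SE 0.16, adjusted p = 0.000198). Rplp0, the stalk protein P0, had 2636, 2175 and 2140 against 921, 1070 and 630 CPM (-1.43, SE 0.15). In both the light values stood well above the heavy ones, with 1211, 882 and 1101 CPM of Rpl19 and 6355, 5379 and 4881 CPM of Rplp0 in fraction 2 alone. Rpl7a (-1.72) was also light. The heavy members Rps28 (1.68), Rplp1 (1.44), Rps29 (1.21) and Rpl5 (1.04) differed from these. Rps28 was at 19.8, 22.6 and 35.4 CPM in heavy and 7.82, 6.31 and 7.43 CPM in light fractions. Ribosomal protein genes have many processed pseudogenes, which can take part of their reads.

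Mitochondrial ribosomal proteins and nuclear genes of oxidative phosphorylation also had a large share in fraction 2. Among 46 mitochondrial ribosomal protein genes called over the fractions, 37 were highest there (80.4%), beside 21.1% of all genes called. In the comparison of sides, 16 of 76 were light and 4 heavy, beside 7.54% and 19.2% of all genes tested. The light calls were led by Mrpl58 (-1.56), Mrpl54 (-1.44), Mrps18a (-1.32) and Mrps26 (-1.09), and the heavy ones by Mrpl1 (1.71). The group's median of -0.16 turned to 0.16 with fractions 3 to 5 as the light side. Of 67 respiratory genes called over the fractions, 34 were highest in fraction 2 (50.7%), beside 21.1% of all genes called. In fraction 9, 24 were highest, beside 407 of all 5002 genes called. The respiratory group thus had a second maximum below the middle of the gradient. Between the sides, 25 of 77 were heavy and 14 light. Their median was 0.16 but -0.05 with edgeR and -0.11 with DESeq2 scaling. Cox6c, a subunit of cytochrome c oxidase, had 68.4, 92.6 and 166 CPM in heavy and 24.1, 13.6 and 28.4 CPM in light fractions (2.22, SE 0.27, adjusted p = 0.000577). Ndufa4 (2.22), Cox6a1 (1.77) and the complex I subunit Ndufs1 (1.77) were likewise heavy. On the other side, the ATP synthase subunit Atp5o (-1.30) and the complex I subunits Ndufb10 (-1.12), Ndufs8 (-1.01) and Ndufb7 (-0.98) were light.

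Transcripts of the mitochondrial genome, which are translated inside mitochondria, were high at both ends. Of the 10 tested, 4 were heavy and none was light, beside 19.2% and 7.54% of all genes tested. The 4 were ND4 (1.55), ND5 (1.53), CYTB (0.90) and COX1 (0.72). COX1 was at 102, 129 and 90.4 CPM in heavy and 40.5, 101 and 63.6 CPM in light fractions, with overlapping ranges. In fraction 10 it reached 291, 316 and 191 CPM, in fraction 2 it had 120, 222 and 175 CPM, and in fraction 5 only 10.2, 33.5 and 26.1 CPM. With fraction 1 added to the light side the group's median of 0.73 turned to -0.91.

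The medians of the cytoskeleton and glycolysis groups were highest in fraction 3, near the top of the gradient. They stood there at 0.73 and 0.67 above the genes' own mean (log2 scale), and in fraction 2 at 0.70 and 0.01. Of 17 tubulin and actin genes, 10 were light and 1 was heavy, beside 7.54% and 19.2% of all genes tested, with a median of -0.82. Of 12 called over the fractions, 6 were highest in fraction 2 and 5 in fraction 3, beside 1055 and 537 of all 5002 genes called. Tubb4b had 2463, 2499 and 3197 CPM in light and 952, 673 and 639 CPM in heavy fractions (-1.86, SE 0.17, adjusted p = 0.000219), and the sides were well separated. Tubb5 (-1.50), Tubb6 (-1.33), Tuba3b (-1.26) and Actb (-0.82) were light, while Actg1, the other cytoplasmic actin, was heavy (0.57, adjusted p = 0.0457). Tuba3b has a near-identical copy, Tuba3a. Of 14 glycolysis and lactate genes, 6 were light, among them Aldoa, Gapdh (-1.54), Gpi1 (-1.23) and Tpi1 (-0.87), and 1 was heavy, the lactate dehydrogenase subunit Ldhb (0.64). Gapdh had 29, 18.8 and 24.9 CPM in light and 7.82, 7.11 and 7.70 CPM in heavy fractions. Of 9 glycolysis and lactate genes called over the fractions, 4 were highest in fraction 2 and 2 in fraction 3. Fractions 4, 8 and 9 held the maximum of 1 each.

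Chaperones lay at the opposite end. Of 16 heat shock chaperones, 9 were heavy and 1 was light, beside 19.2% and 7.54% of all genes tested, with a median of 1.06. Of 14 called over the fractions, 8 were highest in fraction 10, beside 29.7% of all genes called. Without fraction 10 on the heavy side the median was 0.49, beside 0.16 for all genes tested. Hspa4 (2.26), Dnaja1 (2.23) and the mitochondrial chaperones Hspa9 (2.12) and Hspd1 (2.08) led. Dnaja1 had 264, 393 and 316 CPM in heavy and 95.1, 59.2 and 54.2 CPM in light fractions, and Hspa9 had 201, 244 and 251 against 44.2, 66.8 and 48.5 CPM. For both, each heavy value was above every light one. Dnajb1, a cochaperone of the same family as Dnaja1, was light at 736, 528 and 550 against 290, 219 and 230 CPM (-1.29, SE 0.13, adjusted p = 0.000342). The cytosolic chaperonin TRiC, which folds tubulin and actin, had 4 heavy subunits of 8 and no light one: Cct2 (1.08), Cct8 (0.94), Cct4 (0.90) and Tcp1 (0.82). The TRiC median of 0.59 was 0.19 without fraction 10, near that of all genes.

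The translation machinery itself was divided. Among 45 initiation factor genes, 12 were heavy and 17 light, beside 19.2% and 7.54% of all genes tested. Eif5b, which joins the ribosomal subunits, was at 42.7, 48.4 and 71.0 CPM in heavy and 9.08, 3.12 and 6.50 CPM in light fractions (2.99, SE 0.35, adjusted p = 0.000488). Eif3a (1.98), Eif4g2 (1.83) and Eif5 (1.41) were heavy, and the eIF3 subunits Eif3g, Eif3h (-1.40) and Eif3d (-1.34) were light together with Eif1ad (-1.67). Genes for subunits of a single complex, eIF3, were thus called on both sides. The release factor Etf1 (1.74) was heavy and the elongation factors Eef2 (-0.84) and Eef1d (-0.80) were light. Of 19 aminoacyl-tRNA synthetases, 7 were heavy, led by Eprs (1.82), Iars (1.46), Nars (1.45) and Rars (1.36), and Sars (-0.90) and Qars (-0.71) were light. The median of the synthetases was 0.47 and -0.03 with quantile normalisation. It rested on gradient A: the gradient medians were 0.80, 0.22 and 0.12 in A, B and C. Without gradient A the median was 0.13, beside 0.17 for all genes.

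The proteasome, which degrades ubiquitin-tagged proteins, also had calls on both sides. Of 36 proteasome genes, 8 were heavy, which is near the 19.2% of all genes tested, and 7 were light, beside 7.54%. The heavy calls included Psmc6 (1.99), Psmd1 (1.91) and Psmd12 (1.70), and the light calls Psmd3 (-1.36), Psmd8 (-1.10) and Psmd4 (-0.96). The median of the 36 genes was 0.10, and it was -0.02 with quantile normalisation, -0.09 with edgeR and -0.16 with DESeq2. Histone genes had 2 heavy members, the variants H2az1 (0.80) and H3f3a (0.66), and 5 light ones of 39: H1f4 (-1.26), H1f10 (-1.14), H1f1 (-1.04), H2aj (-0.85) and H1f8 (-0.62). H1f8, the linker histone of oocytes, had 8335, 8881 and 6045 CPM in light and 5110, 5700 and 4260 CPM in heavy fractions, without overlap. Of 12 replication-dependent histone genes called over the fractions, 11 were highest in fraction 2, beside 21.1% of all genes called. Since replication-dependent histone transcripts lack a poly(A) tail in most cells, the capture of polyadenylated RNA sees only part of them. The histone median of -0.04 was 0.04 when logs were averaged and 0.50 with fractions 3 to 5 as the light side.

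**Figure D4:**
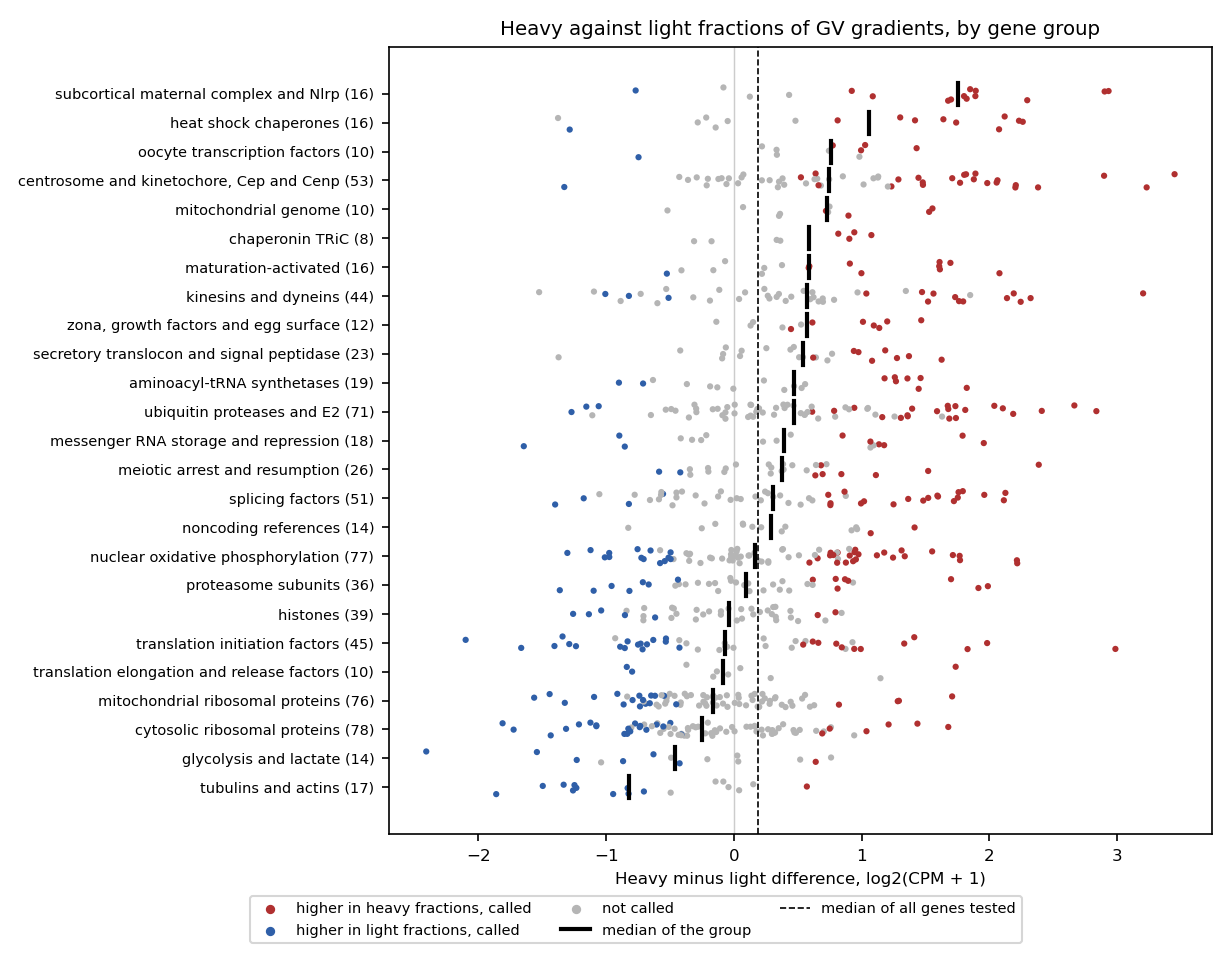
Heavy minus light difference on the log2(CPM + 1) scale (x) of each tested member of 25 gene groups (y, number tested in brackets), coloured by call, with the group median (bar) and the median of all genes tested (dashed line, 0.19). The subcortical and Nlrp group lies furthest right (median 1.75) and the tubulins and actins furthest left (-0.82).

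Several large groups had more heavy than light calls, as had all genes tested (19.2% heavy and 7.54% light). Of 53 Cep and Cenp genes of centrosomes and kinetochores, 23 were heavy and 1 was light (median 0.75), with Cep152 (3.23), Cenpe (2.90) and Cep192 (2.38) beside Cenpf, and with Cenpm (-1.33) as the light one. Among 44 kinesins and dyneins, 12 were heavy and 3 light, led by Kif20b (3.20), Kif14 (2.32), Kif23 (2.25) and Kif18a (2.19), with Kif17 (-1.01) the lowest of the light calls. The kinesin and dynein median of 0.57 was -0.03 after a trend on coding length was removed. Zinc finger genes named Zfp had 70 heavy and 10 light calls of 235 (median 0.54), with Zfp120 (2.88) and Zfp51 (2.71). Ubiquitin proteases and conjugating enzymes had 21 and 3 of 71 (median 0.47), with Usp9x (2.84) and Usp37 (2.67), against Ube2j1 (-1.27). Splicing factors had 19 and 4 of 51 (median 0.31, and -0.01 with quantile normalisation), with Prpf18 (2.13) heavy and Prpf31 (-1.40) light. Solute carriers, in contrast, had 21 heavy and 20 light calls of 208.

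Coding length could be assigned to 10923 of the genes tested (93.4%) from a mouse annotation of another build, used for lengths only. Genes called heavy had a median coding length of 1800 bases, light genes 1152 and all genes 1404. Spearman's rho between the difference and length was 0.18 for coding and 0.23 for transcript length, across genes, which are not independent replicates. The relation had no single direction. The median difference was 0.41 for 195 genes of up to 300 bases, 0.04 between 600 and 1000 bases and 0.72 for 839 genes above 4000 bases, of which 36.8% were heavy and 2.50% light. Genes of up to 300 coding bases were high at both ends, with a median level relative to the gene's own mean of 0.55 in fraction 2 and 0.51 in fraction 9 (log2 scale).

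RNAs that do not encode proteins were followed along the same gradients. Reads of the 18S ribosomal RNA (Rn18s), which remain after capture of polyadenylated RNA, made up 1882, 1505 and 3108 CPM of the heavy and 1076, 303 and 735 CPM of the light fractions (1.73, SE 0.24, adjusted p = 0.00101). Rn18s was lowest in fraction 3 or 4 of each gradient and reached 3164, 2916 and 3522 CPM in fraction 9. Of 14 other noncoding RNAs tested, 2 were heavy and none was light, beside 19.2% and 7.54% of all genes tested. They were the snoRNA host gene Gas5 (1.41, SE 0.37) and Rn7s1 (1.07, SE 0.33), a signal recognition particle RNA. Its near-identical copy Rn7s2 (0.96, adjusted p = 0.053) did not pass the test. Rn7s1 was high at both ends, with 52.5, 17.0 and 44.1 CPM in fraction 2 and 69.2, 37.2 and 132 CPM in fraction 10 against less than 6 CPM in fractions 3 to 6. Meg3 (-0.25), Snhg18 (0.07) and Bc1 (-0.83) did not pass the test. Bc1, a small brain-enriched RNA of the dendrites, had 11.4, 11.8 and 15.2 CPM in fraction 2 and 3040 CPM in fraction 1 of gradient C, the deepest of the fraction 1 libraries.

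Compared with MII oocytes, the difference between heavy and light fractions was tested for a change between stages with a fit of both (6 gradients as blocks). Of 12419 genes, 290 (2.34%) were called. In 113 (0.91%) the heavy minus light difference was higher in GV oocytes, and in 177 (1.43%) it was higher in MII oocytes. The median of GV minus MII over all 12419 genes was 0.19, and 0.05 with quantile normalisation. Each gradient holds 1 stage only, so stage cannot be told apart from the set of gradients. Without GV gradient A, B or C the calls fell to 114, 125 and 66, and without MII gradient B to 77.

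The maturation-activated group held 4 genes that changed between the stages. Its median difference was 0.59 in GV and 1.60 in MII oocytes, beside 0.19 and -0.07 for all genes. Plat, Orc6, Mos and Ccnb1 had a higher difference in MII oocytes. Plat changed most, from -0.52 ± 0.37 in GV to 2.24 ± 0.61 in MII oocytes (SD, n = 3; GV minus MII -2.77, SE 0.30, adjusted p = 0.00202). In MII oocytes Plat had 723, 1892 and 1902 CPM in heavy and only 241, 272 and 373 CPM in light fractions. Ccnb1 went from 0.22 ± 0.29 to 1.53 ± 0.59 (-1.31, SE 0.29, adjusted p = 0.0444) and Mos from -0.16 ± 0.06 to 1.17 ± 0.56 (-1.34, SE 0.26, adjusted p = 0.0257). For both, the light levels of MII oocytes (357 to 425 CPM for Ccnb1 and 856 to 1343 CPM for Mos) were below those of each GV gradient. Among oocyte transcription factors, Obox5, Obox1 and Obox2 were further to the heavy side in MII oocytes, Obox5 with 1.00 ± 0.06 in GV and 4.31 ± 0.63 in MII (adjusted p = 0.000639). Nobox was further to the light side in MII oocytes (-1.88) than in GV oocytes.

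The largest shifts of all toward the heavy side in MII oocytes were those of Ccar1 (2.35 in GV, 7.03 in MII), a regulator of apoptosis and transcription, the condensin subunit Smc4 (2.22 and 6.62), Nexn (2.59 and 6.81), Htatsf1 (0.77 and 4.87) and Obox5. Ccar1 had 96.3, 73.0 and 58.1 CPM in GV heavy and 634, 537 and 759 CPM in MII heavy fractions. In the other direction, the 5 largest changes had mean differences of opposite sign, positive in GV and negative in MII oocytes: Inha (2.65 and -1.75), Nufip1 (2.45 and -1.07), Zbtb37 (1.55 and -1.39), Lgi2 (1.25 and -1.28) and Gtf2e2 (1.20 and -1.29). Inha is the granulosa marker named above, and its GV minus MII change of 4.40 (SE 0.77, adjusted p = 0.0165) was the highest of the positive ones. Of the 10 genes with these largest shifts, 8 lost the call without a filter on low values, 5 with edgeR and 5 without GV gradient C. Lgi2 did not pass the F test over the GV fractions (adjusted p = 0.356). Of the zona, growth factor and surface genes, Zp2 had a higher difference in GV oocytes (1.14 and 0.19, adjusted p = 0.0483), and Oosp3 (0.38 and 2.81) and Oosp1 (0.45 and 1.80), which encode secreted oocyte proteins, had a higher one in MII oocytes. Zp3 did not pass the test (1.47 and 0.30, adjusted p = 0.0667).

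**Figure D5:**
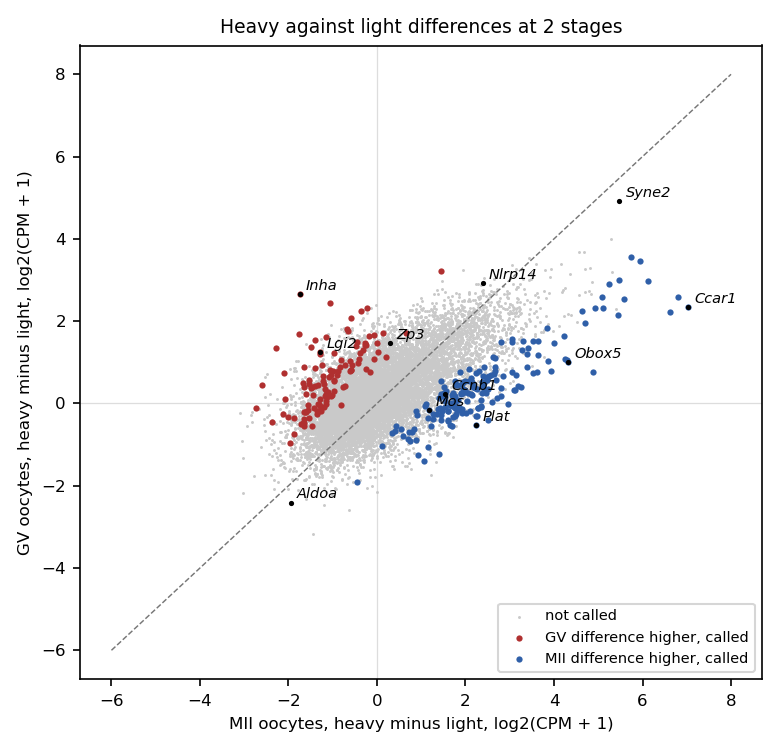
Heavy minus light difference on the log2(CPM + 1) scale in GV (y) against MII oocytes (x), 1 point per gene, with 113 genes called as higher in GV in red, 177 called as higher in MII in blue, and equality as a dashed line. Plat, Ccnb1, Mos and Obox5 lie right of the line and Inha and Lgi2 left of it.

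Genes with a pattern like that of Ccnb1 and Zp3 were sought among 7251 genes over the 27 libraries of fractions 2 to 10, which share gradient and depth. Nearest to Ccnb1 by Pearson's r were Orc5 (0.973), Map2k1 (0.965) and Oog3 (0.956), and nearest to Zp3 were Ndufa4 (0.880), Cst3 (0.875) and Cox6a1 (0.872).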

How the data were processed

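Per the labels' protocols, RNA of each gradient fraction was amplified with a Smart-seq2 kit, tagmented and sequenced as paired ends. The submitters' processing notes name Trim Galore 0.6.7, FastQC, HISAT2 2.2.1, featureCounts 2.0.1, edgeR and build GRCm39, without their order; the annotation and any use of strand are not given in the sources used here, so antisense and overlapping genes may share reads. The authors deposited 1 table of CPM values per gene symbol (15854 symbols). Values of 29 columns, of which the sum is too high for CPM because symbols repeat, were recorded as a signal that the authors had scaled in the same way. After 1 symbol was kept per group of identical rows (76 groups, 159 symbols), 15771 remained. In all 272 libraries over 99.9% of the values checked were whole multiples of 1 read (tolerance 0.05 reads). The highest values were left out of this check. The step of 1 read gave the depth and the read counts behind the deposited values.

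CPM was averaged over fractions 6 to 10 (heavy) and 2 to 5 (light) per gradient, with equal weight for each fraction whatever RNA it held. log2(mean + 1) was tested with limma 3.58.1 (R 4.3.3, mean-variance trend, gradient letter as a block, Benjamini-Hochberg adjustment) for genes with CPM of at least 1 in 3 of 6 side means. The pseudocount understates changes of low genes. An F test over fractions 2 to 10 and an interaction of stage and side (GV and MII, 12 side means) used the same settings. The letters were taken as pairs because both sides of a gradient came from the same lysate. Heavy and light deviations of the same letter correlated at 0.142, 0.375 and 0.245. The gradient libraries of a fraction differed by more than sampling noise (chi-square per degree of freedom at least 2.55 over 30 pairs). Scripts were tested on simulated data. Alternatives included edgeR 4.0.16 (2558 genes called) and DESeq2 1.42.0 (3934) on the recovered reads.

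The members, gene lists and tests were chosen with earlier results of these data known. Named genes are the 10 largest called differences in each direction with the same sign in 3 gradients and a mean CPM of at least 10, the leading profiles, the 5 largest changes against MII in each direction, up to 4 called members per direction of each list or the 3 most abundant others, and the whole maturation-activated list. Nobox, Zp2, Oosp1, Oosp3, Obox1 and Obox2 are named against MII after their values were seen. Khdc3, Ooep, Tle6, Padi6, Astl, Gdf9, Zp1, Izumo1r, Actb, H1f8 and Bc1 were named outside these rules. They are not in the count of named genes under other settings given below. Lengths came from a GRCm38 annotation and start-site windows from RefSeq, matched by symbol. Whole-oocyte transcriptomes and the other stages were not used here, beyond 1 alternative with all 8 stages. Some named genes are not reported here.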

Additional observations from a re-analysis of the deposited data

Results flagged for a closer look

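The heavy minus light difference of 10 named genes differed between GV and MII oocytes by the interaction test across all genes (limma, adjusted p under 0.05). GV minus MII was 4.40 for Inha, 3.52 for Nufip1, 2.94 for Zbtb37, 2.53 for Lgi2 and 2.49 for Gtf2e2. It was -4.68 for Ccar1, -4.40 for Smc4, -4.22 for Nexn, -4.11 for Htatsf1 and -3.32 for Obox5. The 5 positive ones had mean differences of opposite sign at the 2 stages. Without a filter on low values 8 of the 10 lost the call, with edgeR 5 and without GV gradient C 5.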

How the results depend on the processing

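The count of genes called between heavy and light fractions (3132, of which 2250 heavy and 882 light) was 2096 with no replicate block (480 light), 1421 (976 and 445) without a filter on low values, 746 (506 and 240) with fraction 1 on the light side, 4784 (3499 heavy) with fractions 2 and 3 as the light side, and 72 (53 and 19) with all 8 stages in 1 fit. Light calls were 1491 with quantile normalisation, 390 at a log2 difference of at least 1 and 1947 with DESeq2, and heavy calls were 1472 with edgeR. Leaving out 1 gradient gave 986 to 3741 calls (793 to 2590 heavy, 193 to 1151 light). The profile count of 5002 became 2244 to 4009 with 1 gradient left out and 2203 over fractions 3 to 9. The 290 calls against MII became 96 with no replicate block, 14 without a filter, 473 with fractions 2 and 3 as the light side, 173 with edgeR and 66 to 337 with 1 gradient left out.

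Direction turned for ND4 (-0.31), ND5 (-0.33), CYTB (-0.96), COX1 (-0.15), Fbxo5 (-0.0805) and Rn7s1 (-0.87) with fraction 1 on the light side, for Rn7s1 also with fractions 6 to 9 as the heavy side (-0.0607), for Plat (0.37) and Cdc6 (1.65) with fractions 2 and 3 as the light side, and for Plat when logs were averaged (0.30). With fractions 3 to 5 as the light side, chosen after seeing the data, it turned for Mrpl54 (0.0935), Atp5o (0.0145), Ndufb7 (0.0186), H1f4 (0.20), H1f1 (0.25), H2aj (0.31), Cenpm (0.0663) and Snrpd2 (0.18). The cause was not tested. Over the 193 named genes, 3522 alternative values kept the call, 653 lost it, 13 gained it and the 18 listed above turned direction. Changes of sign in genes called in neither fit count among the 3522 and are not listed. Settings that leave out fraction 10, keep fractions 3 to 9 or remove a length trend were also chosen after seeing the data. Fraction 1 limits what can be said of the top of the gradient, and 3 gradients per stage limit the size of a difference that can be called.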
